A study of Homo sapiens with 3 samples.

Results

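The genes described here encode 10 proteins that write, erase or read N6-methyladenosine (m6A), a methyl mark on adenosines within RNA. They were looked up in a list of m6A regions from the nuclear RNA of MDA-MB-231 cells, a line derived from a human breast cancer. A region was taken as a member when its midpoint lay inside the hg19 window of one of the genes. This gave 62 of the 41836 regions in the list, 61 of them on the strand of the gene and 1 on the opposite strand. The genes were METTL3, METTL14, WTAP and KIAA1429 (4 writers), FTO and ALKBH5 (2 erasers), and YTHDF1, YTHDF2, YTHDC1 and HNRNPA2B1 (4 readers). RNA of cell nuclei had been precipitated with a rabbit antibody to m6A in 2 libraries, and with control IgG from rabbit in 1 library. The labels name no treatment, and do not say whether the libraries with the m6A antibody came from separate cultures. The deposited list is one for the series, with the same score for every region and no value for a single library. This leaves enrichment over IgG, sequencing depth and replicate spread unknown, so the values below carry no replicate error and none of the comparisons was tested.

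METTL3 is the catalytic subunit of the nuclear complex that methylates adenosine in messenger RNA, and METTL14 is its partner that helps hold the RNA. WTAP and KIAA1429, now called VIRMA, are further subunits, of which WTAP brings the methyltransferase to nuclear speckles. FTO and ALKBH5 are demethylases. YTHDF1 and YTHDF2 bind m6A through a YTH domain in the cytoplasm, where YTHDF2 promotes RNA decay, and YTHDC1 does so in the nucleus. HNRNPA2B1 is an abundant nuclear RNA-binding protein that has been described as an m6A reader. In messenger RNA of many human cells the mark is found mostly in long internal exons and around stop codons, in short sequences of which GGACT is the best known. Nuclear RNA also holds unspliced precursors, so a region in a gene window can lie in an exon or in an intron. No hg19 gene model or genome sequence was used, so exon, intron and untranslated parts were not assigned to any region.

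All 4 writer genes and all 4 reader genes held m6A regions, and neither eraser gene did. HNRNPA2B1 held the most, with 18 regions on the gene strand in a window of 12 kb. YTHDC1 followed with 13 in 40 kb, KIAA1429 with 10 in 67 kb and YTHDF2 with 7 in 34 kb. WTAP held 4 regions in 30 kb, and METTL3, METTL14 and YTHDF1 held 3 each in 14, 26 and 22 kb. FTO had 0 in the longest window of the set, 412 kb, and ALKBH5 had 0 in 27 kb. The windows of the writers run from 21966 to 21980 kb of chromosome 14 for METTL3, from 119606 to 119632 kb of chromosome 4 for METTL14, from 160148 to 160178 kb of chromosome 6 for WTAP and from 95499 to 95566 kb of chromosome 8 for KIAA1429. Those of the readers run from 61826 to 61848 kb of chromosome 20 for YTHDF1, from 29063 to 29097 kb of chromosome 1 for YTHDF2, from 69176 to 69216 kb of chromosome 4 for YTHDC1 and from 26229 to 26241 kb of chromosome 7 for HNRNPA2B1.

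Per length, HNRNPA2B1 stood above the other genes, with 15.0 gene-strand regions per 10 kb. YTHDC1 had 3.25 per 10 kb, METTL3 2.14 and YTHDF2 2.06. The lowest values among genes with a region were 1.49 for KIAA1429, 1.36 for YTHDF1, 1.33 for WTAP and 1.15 for METTL14, which lie close together. The writers in sum had 20 regions in 137 kb, or 1.46 per 10 kb, and the readers 41 regions in 108 kb, or 3.80 per 10 kb. Without HNRNPA2B1 the readers had 23 regions in 96 kb, or 2.40 per 10 kb. With counts as low as 3 per gene and no replicate, the order of the genes below HNRNPA2B1 carries little weight. Among regions wider than the median of the list, HNRNPA2B1 held 14, KIAA1429 7 and YTHDC1 6.

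Most stretches of the genome held no region. Over tiles of 10 kb on each strand, 3.77% of 600002 tiles held at least 1 region. Of the gene-strand tiles centred in the 10 windows, 19 of 67 held a region, or 19 of 26 when the 41 tiles of FTO were left out. The tiles of the background include stretches without genes, so the difference shows nothing particular to the m6A genes.

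**Figure D1:**
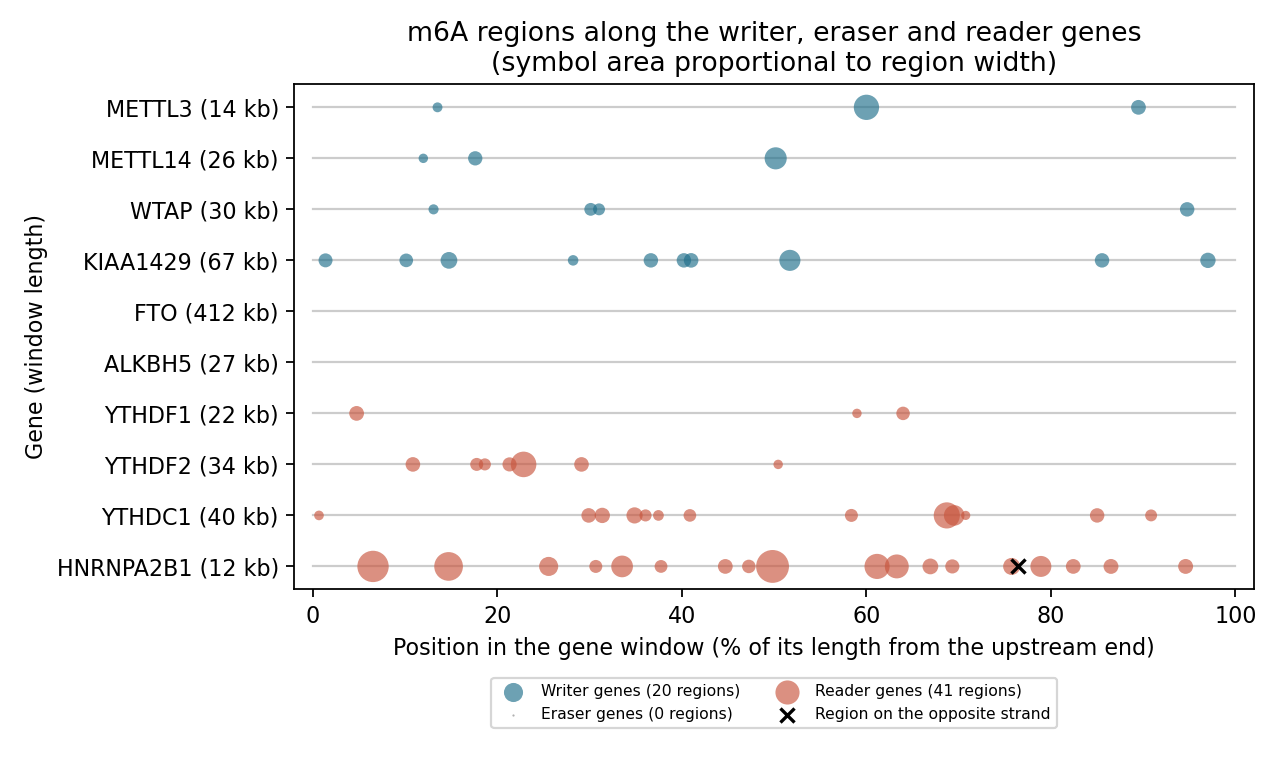
Each point is 1 m6A region, placed by its midpoint as a percentage of the gene window counted from the upstream end, with an area proportional to its width in nt. The 18 gene-strand regions of HNRNPA2B1 run along the whole window, the 7 of YTHDF2 lie in its first 50.4%, and the lines of FTO and ALKBH5 are empty.

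To show the consensus letters that these transcripts carry, the motif GGACT was searched on the RNA strand of 1 annotated messenger RNA per gene from GENCODE release 29 (GRCh38). The sites below are those nearest to the stop codon in 7 of the genes, with 10 bases on each side and the motif in capitals. They are matches of letters in the spliced RNA and were not placed on the m6A regions, whose coordinates are in another build. No line is given for HNRNPA2B1, whose spliced RNA had 0 matches.
METTL3: gtgcagaacaGGACTcgactacagt
METTL14: gcacagacggGGACTtcattcatgc
WTAP: agaatggcttGGACTcaagtgtaaa
ALKBH5: agtcctcagaGGACTgctctgaggc
YTHDF1: agtcccccgtGGACTacggcaccag
YTHDF2: aagagaattaGGACTtttttcttaa
YTHDC1: ccgggcagacGGACTgacggacggg

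The site of WTAP, on chromosome 6, lies in the last of 8 exons, with its A 32 nt before the stop codon. That of ALKBH5, on chromosome 17, is also in the last of 4 exons, 53 nt before the stop codon, and that of YTHDF2, on chromosome 1, lies 82 nt into the RNA past the start of the stop codon, in the untranslated part of exon 5. Further away are the sites of YTHDF1 on chromosome 20 (308 nt before the stop codon, exon 4 of 5), METTL14 on chromosome 4 (461 nt before it, exon 10 of 11) and METTL3 on chromosome 14 (1193 nt before it, exon 3 of 11). The only site of YTHDC1, on chromosome 4, is in the untranslated part of exon 1, 2227 nt before the stop codon.

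The number of listed regions did not follow the number of GGACT matches in the spliced RNA, but these were counted over unlike spans. Regions were counted in the windows and matches in whole transcripts. The transcripts of METTL14 (30.1 kb) and FTO (418 kb) span more than their windows of 26 and 412 kb. In METTL14, 6 of the 8 matches lie after the stop codon. HNRNPA2B1 had 18 regions and 0 matches in 1711 nt, and YTHDC1 had 13 regions and 1 match in 3244 nt. ALKBH5 had no region and 4 matches in 2748 nt (1.46 per kb), and FTO had no region and 5 matches in 11766 nt (0.42 per kb), all of them after the stop codon. METTL3 had 3 regions and 4 matches (1.99 per kb), METTL14 3 regions and 8 matches (1.20 per kb), and KIAA1429 10 regions and 10 matches (1.53 per kb). WTAP had 4 regions and 3 matches (0.82 per kb), YTHDF1 3 regions and 1 match (0.30 per kb), and YTHDF2 7 regions and 3 matches (1.03 per kb). Over 19836 protein-coding transcripts, chosen in the same way, the median was 0.94 GGACT per kb, and 88.0% held at least 1 match. When the letters GAACT were counted as well, along with AGACT matches and those of AAACT, HNRNPA2B1 had 5 matches (2.92 per kb), the lowest density of the 10 genes, against a median of 4.23 per kb over all transcripts, of which 99.1% held at least 1. The reverse complement AGTCC occurred 2 times in the RNA of HNRNPA2B1, with a median of 0.78 per kb and at least 1 match in 83.5% of all transcripts. Introns were not searched, and most of each gene is intron: the spliced RNA is from 2.81% (FTO) to 22.2% (METTL14) of the transcript's length along the genome.

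Among the writers, METTL3, METTL14 and WTAP had 3 or 4 regions each and KIAA1429 had 10. In METTL3, the catalytic subunit, on the minus strand of chromosome 14, the first region measured 22 nt and ran from 21978099 to 21978120, 1.89 kb from the upstream end of the window. One of 144 nt followed from 21971528 to 21971671, 8.40 kb from that end, and one of 49 nt from 21967447 to 21967495, at 89.5%. The 3 regions were 4032 and 6427 nt apart, so no pair lay within 1 kb. Together they covered 215 nt, or 1.54% of the window.

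METTL14, the RNA-binding partner of METTL3, had its counted regions in the upstream 50.2% of its window. On chromosome 4 (plus strand) they ran from 119609104 to 119609123 (20 nt), from 119610553 to 119610598 (46 nt) and from 119618990 to 119619099 (110 nt), 3.11, 4.58 and 13.0 kb from the upstream end, the last of them at 50.2% of the window. A further region of 34 nt, from 119632030 to 119632063, started 29 nt beyond the downstream end of the window and was not counted. It is the closest of all excluded regions to a window limit, while the closest member to one is the 21-nt region of YTHDC1, 0.264 kb inside. GENCODE lists METTL14 with a length of 30.1 kb, longer than the window of 26 kb, and with a last exon of 5436 nt.

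WTAP had 4 regions of 23, 37, 32 and 47 nt, all under 50 nt. The first ran from 160151914 to 160151936 on chromosome 6 (plus strand), at 13.1% of the window. The next 2, from 160157020 to 160157056 and from 160157290 to 160157321, were separated by 233 nt and formed the only pair of the gene within 1 kb. The last, from 160176413 to 160176459, lay at 94.8%, after a stretch of 19091 nt with no region.

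KIAA1429, the largest subunit, had 10 regions spread over 64.1 kb of its 67 kb window on the minus strand of chromosome 8. Their widths ran from 25 to 100 nt, with a median of 47 nt. The most upstream region, of 44 nt, lay 0.92 kb from the upstream end of the window (95565059 to 95565102), and the most downstream one, of 53 nt, at 97.0% of the length (95500965 to 95501017). The widest, of 100 nt, ran from 95531302 to 95531401, near the middle at 51.7%. The upstream 51.7% of the window held 8 of the 10 regions. Downstream of the widest region no region was listed for 22597 nt. The median gap between neighbouring regions of KIAA1429 was 5817 nt over 9 gaps. Those of METTL3 (5230 nt), WTAP (5083 nt) and METTL14 (4910 nt) rest on 2, 3 and 2 gaps. The gaps of WTAP ran from 233 to 19091 nt, and those of METTL14 were 1429 and 8391 nt, so these medians show no shared spacing.

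The eraser genes had no listed m6A region on either strand. For FTO, on chromosome 16 (plus strand) from 53737 to 54149 kb, the nearest gene-strand regions lay 247 kb below and 1468 kb above the window. The gap of 2127 kb that contains FTO is among the longer ones of the list, where 579 of 41788 same-strand gaps (1.39%) are at least as long. A gap around an empty window is at least as long as the window, here 412 kb, so this share partly restates the window length. For ALKBH5, on chromosome 17 (plus strand) from 18087 to 18114 kb, the nearest gene-strand regions lay 76.5 kb below and 106 kb above. That gap is 209 kb, around a window of 27 kb, and 12.6% of same-strand gaps are at least as long. With windows of such unlike length, the shares of the 2 genes are not comparable. The nearest region on either strand was 35.1 kb downstream of ALKBH5, on the opposite strand, and 247 kb upstream of FTO. The list holds no expression values and names no region below its threshold. RNA without the mark and RNA too scarce to be listed cannot be told apart for these genes.

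**Figure D2:**
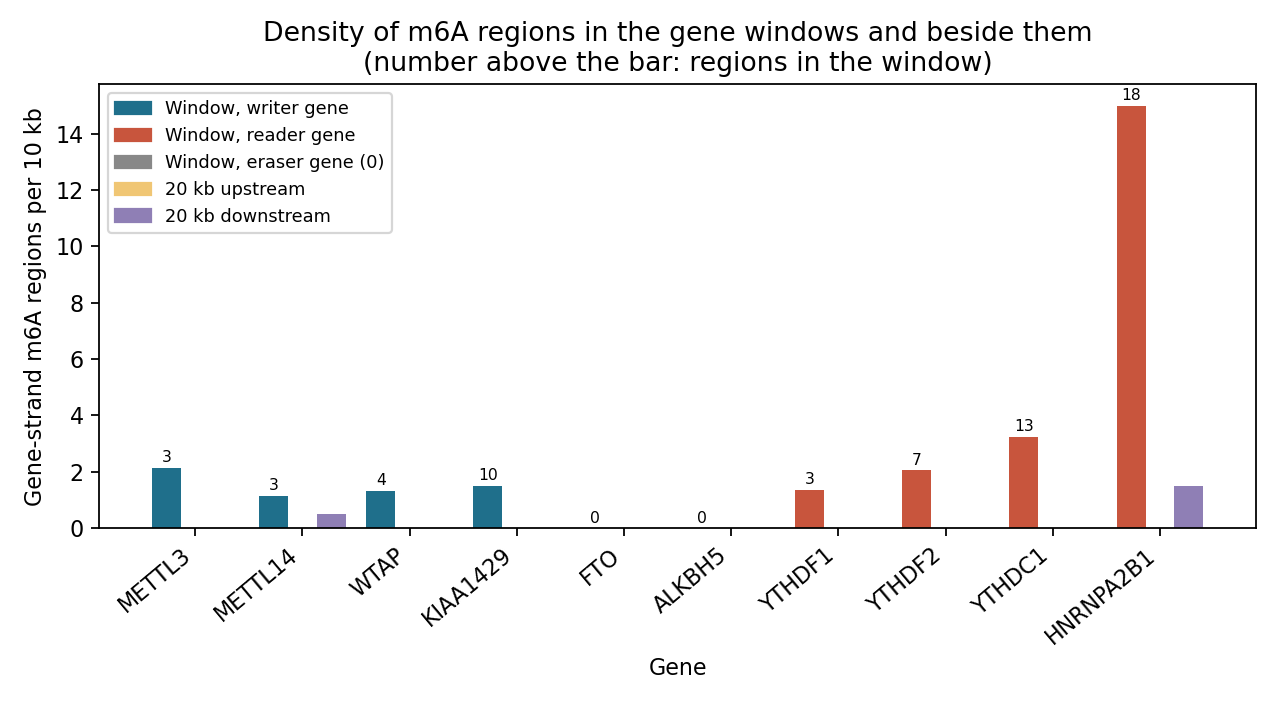
Bars give gene-strand m6A regions per 10 kb in each gene window, in the 20 kb upstream of it and in the 20 kb downstream, with the number of regions in the window above its bar. HNRNPA2B1 reaches 15.0 per 10 kb, the other genes with a region lie between 1.15 and 3.25, and no upstream bar rises above 0.

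The cytoplasmic readers YTHDF1 and YTHDF2, which are paralogs, differed in number and position of their regions. YTHDF1 had a region of 49 nt near its upstream end (chromosome 20, minus strand, from 61846934 to 61846982, at 4.74% of the window). Its other regions, of 20 nt from 61835015 to 61835034 and of 41 nt from 61833905 to 61833945, lay at 59.0% and 64.0%. YTHDF2 had 7 regions between 10.8% and 50.4% of its window and none further downstream. Of these, 4 formed a chain with gaps under 1 kb on chromosome 1 (plus strand) from 29069020 to 29070838. In that chain the widths were 38, 33, 45 and 147 nt, and the regions covered 263 nt (14.5%) of 1.82 kb. A region of 48 nt stood on each side of the chain, from 29066663 to 29066710 and from 29072878 to 29072925. The last, of 20 nt, ran from 29080140 to 29080159.

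YTHDC1, the nuclear YTH reader, had 13 regions along 36.1 kb on the minus strand of chromosome 4, of 19 to 154 nt with a median of 38 nt. They fell into groups with longer empty stretches between them. The most upstream was a region of 21 nt (69215727 to 69215747), followed by 11662 nt without a region. Then came 6 regions within 29.9 to 40.9% of the window, between 69199636 and 69204064. This stretch included a pair (69203428 to 69204064) and a chain of 3 (69201002 to 69202083) with gaps of at most 1 kb. A second chain of 3 ran from 69187683 to 69188591, with widths of 154, 95 and 19 nt in the direction of the gene, and covered 29.5% of 0.909 kb. It held the 154-nt region (69188438 to 69188591), which was the widest of the gene. The most downstream region, of 32 nt, lay at 90.9% of the window (69179637 to 69179668).

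HNRNPA2B1 was the densest of the 10 genes by number of regions, regions per kb, covered share and gap length. Its 18 gene-strand regions, on the minus strand of chromosome 7, spanned 10.7 of 12 kb from 26229623 to 26240328, and covered 1687 nt or 14.1% of the window. YTHDC1 was next with 1.65%. The widths ran from 37 to 243 nt with a median of 60.5 nt. The widest region (243 nt, 26234900 to 26235142) lay at 49.8% of the window, and the next widest, of 221 nt (26240108 to 26240328) and 185 nt (26239143 to 26239327), were the 2 most upstream. Gaps between neighbours had a median of 434 nt and a range of 121 to 1168 nt, and 15 of 17 were at most 1 kb. Joined at 1 kb, the regions formed chains of 9 (26229623 to 26233732), 7 (26234900 to 26237974) and 2 (26239143 to 26240328). No stretch of the window longer than 1168 nt between its first and last region was free of a region.

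One tile of 10 kb in HNRNPA2B1 held 16 regions, a number reached or passed by 12 of the 22633 tiles with a region in the list (0.053%). Each region had between 7 and 16 same-strand neighbours within 5 kb, with a median of 14. In the whole list the median was 1, the highest number was 21, and 0.925% of regions had at least 14. HNRNPA2B1 was singled out here after its values were seen. Many of its regions are neighbours of each other, so these counts are not independent.

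The list continued past the downstream end of the HNRNPA2B1 window. Gene-strand regions of 43 nt (26228427 to 26228469) and 153 nt (26227159 to 26227311) lay 0.531 and 1.69 kb beyond it. After these came 5 regions on the opposite strand, 3.42 to 4.72 kb beyond the window, from 26224245 to 26225578. The window itself held the only opposite-strand region of the 10 genes, of 22 nt (plus strand) from 26231823 to 26231844, between gene-strand regions of 99 and 65 nt. A further opposite-strand region of 45 nt lay 1.62 kb upstream of the window. GENCODE places the opposite-strand genes NFE2L3 and CBX3 over the annotated limits of HNRNPA2B1, which it lists with 28.5 kb, more than the window of 12 kb. The protein-coding transcript used for the motif search spans 8.90 kb. Which of these genes the regions outside the window belong to was not tested.

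**Figure D3:**
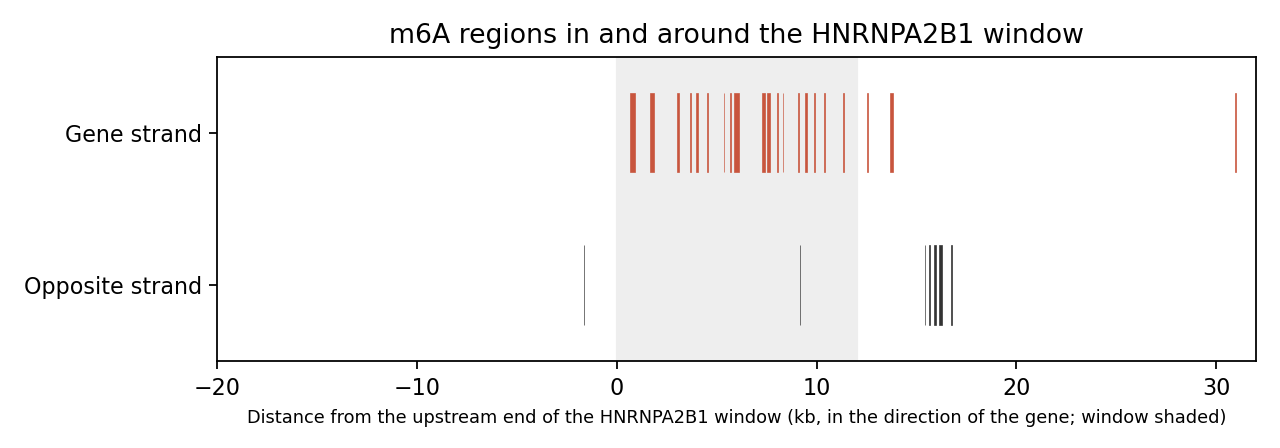
m6A regions in the HNRNPA2B1 window (shaded) and 20 kb on each side, on the gene strand (top) and the opposite strand (bottom), by distance in kb from the upstream end of the window. Gene-strand regions run along the shaded 12 kb, with few outside it. On the opposite strand, 5 regions stand together 3.42 to 4.72 kb past the downstream end of the window.

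The deposited strand of the regions was that of the gene in 61 of 62 cases (98.4%, 95% Wilson interval 91.4 to 99.7%, counting error only). The exception was in HNRNPA2B1, and the other genes with regions, whether on the plus or the minus strand, had them on the gene strand alone. GENCODE gives each of the 10 genes the strand used here. It also places a protein-coding gene of the opposite strand over the limits of METTL3 (TOX4), WTAP (SOD2) and FTO (RPGRIP1L), and no opposite-strand region was listed in those windows. The minus-strand genes held 47 of the 61 gene-strand regions (77.0%) in 155 kb, and the plus-strand genes 14 in 529 kb, or in 117 kb without FTO. Outside the windows 57.4% of regions were on the minus strand. With 18 of the 47 in HNRNPA2B1 and 10 genes in all, the difference describes these genes and says little about strands.

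Few gene-strand regions were listed beside the windows. In the 20 kb upstream and 20 kb downstream of the 10 windows, 400 kb in all, there were 4 gene-strand regions (0.10 per 10 kb), against 61 in the 684 kb of the windows (0.89 per 10 kb, or 2.24 without FTO). None of the 4 was upstream. Downstream, 3 lay beside HNRNPA2B1 and 1 beside METTL14. Opposite-strand regions numbered 9 in the same flanks, 6 of them beside HNRNPA2B1. KIAA1429, FTO, ALKBH5, YTHDF1, YTHDF2 and YTHDC1 had no region on either strand within 20 kb of their windows.

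All parts of the windows held regions. Cut into 5 equal parts from upstream to downstream, the windows held 14, 16, 11, 11 and 9 of the 61 regions. The last 20% thus held 14.8% (95% Wilson interval 7.96 to 25.7%), where an even spread gives 20%. Among regions wider than the median of the list the share was on the other side of that value, at 22.2%. The writers had 7, 4, 4, 1 and 4 regions in these parts, and the readers 7, 12, 7, 10 and 5. No region of METTL14, YTHDF1 or YTHDF2 was in the last 20% of its window. Positions refer to the windows and not to annotated gene ends. GENCODE lists 4 genes as longer than their windows, FTO with 457 against 412 kb, METTL14 with 30.1 against 26 kb, HNRNPA2B1 with 28.5 against 12 kb and WTAP with 30.7 against 30 kb. Which flanking regions lie within these genes, such as the METTL14 one 29 nt beyond its window, was not tested. The regions of a gene are also not independent of each other.

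The widths were close to those of the other regions of the list except in HNRNPA2B1. Members had a median of 47 nt with quartiles of 37 and 63 nt, and regions outside the windows a median of 45 nt with quartiles of 33 and 54 nt. Regions wider than 100 nt numbered 10 of 61 members (16.4%, 95% Wilson interval 9.16 to 27.6%, counting error only), beside 10.3% of the whole list. HNRNPA2B1 held 6 of the 10, and METTL3, METTL14, YTHDF2 and YTHDC1 held 1 each. Without HNRNPA2B1 the share was 4 of 43 (9.30%, 3.68 to 21.6%), near that of the list. Both intervals treat regions as independent, which those of 1 gene are not. The widest region of each of these genes other than HNRNPA2B1 was 144 nt in METTL3, 110 nt in METTL14, 147 nt in YTHDF2 and 154 nt in YTHDC1, with the others of the same gene at or below 95 nt. Regions of exactly 49 nt numbered 4 of 61 (6.56%), all on minus-strand genes, and made up 8.79% of those outside. By strand, they made up 11.5% of minus-strand and 5.18% of plus-strand regions outside, and 8.51% of minus-strand members.

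**Figure D4:**
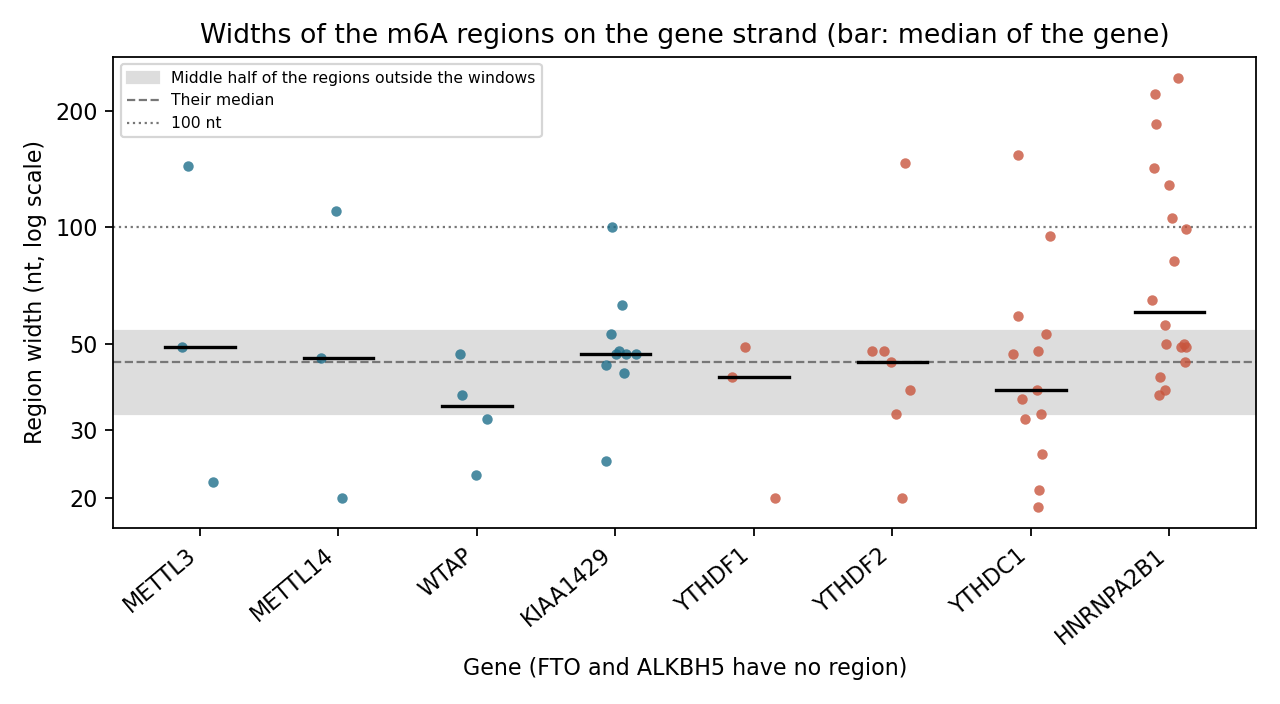
Each point is the width in nt (log scale) of 1 gene-strand m6A region, with a bar at the median of the gene, the grey band marking the quartiles (33 and 54 nt) and the dashed line the median (45 nt) of regions outside the windows. METTL3, METTL14, YTHDF2 and YTHDC1 each have 1 point above 100 nt, and HNRNPA2B1 has 6.

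Regions of the members were more crowded than the list, and this rested on HNRNPA2B1. A member had a median of 3 other same-strand regions within 5 kb, against 1 for regions outside the windows, but without HNRNPA2B1 the median was also 1. The mean without that gene was 2.05, against 2.33 outside the windows. By gene the median was 14 in HNRNPA2B1, 5 in YTHDF2 and 3 in YTHDC1, and at most 1 in the 4 writers and YTHDF1. Among the writers 9 of 20 regions (45.0%) had no neighbour at that distance, compared with 3 of 41 (7.32%) among the readers and 31.4% outside. Of the 41 reader regions, 18 were in HNRNPA2B1, and each of these had at least 7 neighbours. Without that gene, 12 of 43 member regions (27.9%) had no neighbour. The median gap between neighbouring regions of the same gene was 1167 nt over 53 gaps, and 2699 nt over 36 gaps without HNRNPA2B1. In the list the median was 4686 nt, which includes the distances between genes and is therefore larger by construction. Joined at 1 kb, the 61 regions formed 36 chains, of which 27 were single regions.

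**Figure D5:**
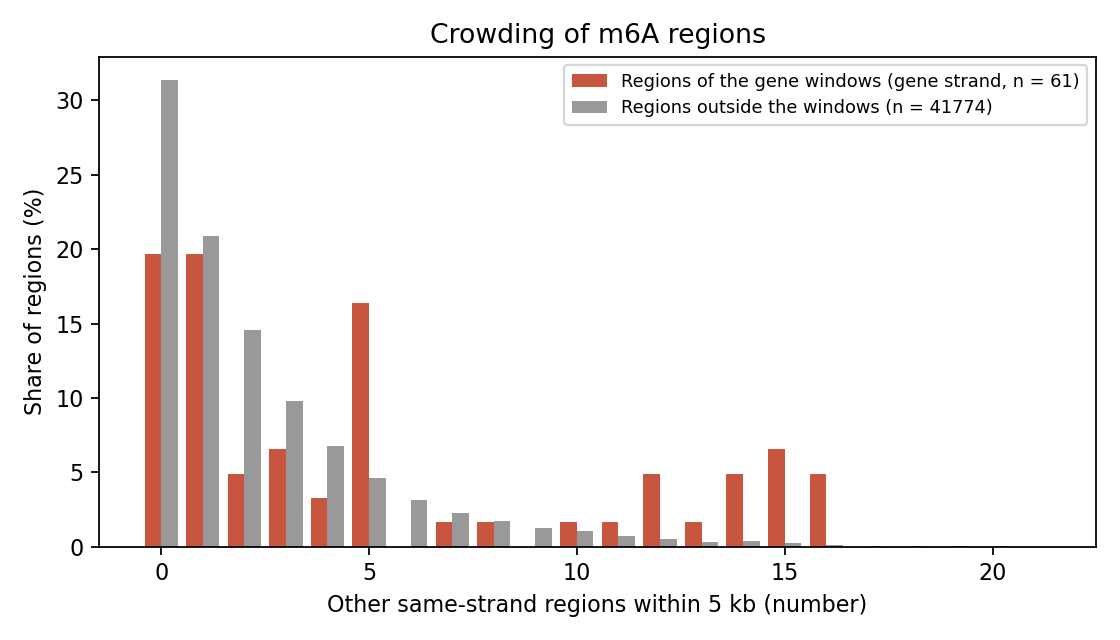
The share of regions (%) by the number of other same-strand regions within 5 kb, for the 61 gene-strand regions of the members and the 41774 regions outside the windows. All member regions with 7 or more neighbours belong to HNRNPA2B1, where 18 of 18 regions have at least 7, compared with 8.81% of the regions outside. These 18 lie within 10.7 kb and many are neighbours of each other, so they describe 1 dense gene and are not independent.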

How the data were processed

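The deposited data were 1 list of regions. The submitters' processing notes name Bowtie2 as aligner, without a version, and hg19 as build. How regions were called, with which thresholds, and how the 2 m6A libraries and the IgG library entered is not given in the sources used here. Every deposited score equals 1, and the only other measurements are the authors' deposited start and end (hg19, printed here counted from 1). The depth per library is unknown.

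The gene windows, in whole kb, came with the choice of genes, and both were chosen with earlier results of these data known. Regions were assigned by midpoint. Gaps, chains joined at 1 kb, neighbours within 5 kb of a midpoint and flanks of 20 kb were counted on the deposited strand. All 10 genes were described, each with its widest region, the regions nearest its ends and its largest chain. Other genes of the pathway and the proteins were not analysed here. No test was run, because the list has 0 columns for single libraries and regions of 1 gene are not replicates. Gene lengths, strands, neighbouring genes and transcript sequences came from GENCODE release 29 (GRCh38): for each gene, the longest APPRIS principal transcript, with a consensus coding sequence where there was one. No coordinate was carried between builds. Sequences of motif sites of FTO and KIAA1429 are not reported here. The counting functions were tested on simulated data. Intervals are 95% Wilson intervals. Counts and plots were made with pandas 2.3.3 and matplotlib 3.10.9 in Python 3.11.15, and intervals with scipy 1.17.1.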

Additional observations from a re-analysis of the deposited data

How the results depend on the processing

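The count of gene-strand regions was 61 with any overlap of 1 nt or with whole regions inside the window. It was 63 with windows extended by 1 kb and 57 with windows shortened by 1 kb. FTO and ALKBH5 had 0 in each, which no such change could alter, since their nearest gene-strand regions lay at least 76.5 kb away. Restricting the list to regions wider than its median left 36 regions (0.053 per kb, all on the gene strand, 100%), with a median width of 54.5 nt and 27.8% over 100 nt, which follows from the restriction. Under it YTHDC1 held 6 regions, YTHDF2 3, WTAP 1 and YTHDF1 1, and the last 20% of the windows held 22.2% of regions, above the 20% of an even spread, against 14.8% and below it for all regions. The share over 100 nt was 9.30% without HNRNPA2B1, near the 10.3% of the list, against 16.4% with it. The interval around 16.4%, from 9.16 to 27.6%, includes both lower values. Without FTO the density was 0.22 per kb, against 0.089 with it, and the covered share 1.43%, against 0.57%, and without HNRNPA2B1 the covered share was 0.33% and 100% of regions were on the gene strand. The density without single genes, and the gaps, crowding and widths without HNRNPA2B1, were added after seeing the data. Regions over 200 nt made up 3.28%, the last 10% of the window held 6.56% of regions, and joining at 10 kb gave 12 chains in place of 36. Leaving out a library could not be run. No paired analysis was possible because no library has values of its own. Depth and enrichment over IgG are unknown, so for a gene without a region a lack of RNA, of methylation or of reads cannot be told apart. GENCODE names 1 pseudogene each after WTAP, FTO, YTHDF1 and YTHDF2, and reads shared with them were not tested. In all, 98 of 110 totals over the genes stayed within their interval or 1.5 times of their value, as did 46 of 51 values for single genes or gaps. Some of these could not differ, such as counts and widths without FTO or ALKBH5, and the counts of 0 of these genes.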
